A study of Mus musculus with 14 samples.

Results

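The 6 genes described here were 2 sestrins (Sesn1 and Sesn2), the secreted stress factor Gdf15, and Zfp365, Dcxr and Ephx1, in a study of the mouse heart after chest irradiation. They were found by symbol in the gene count table, each in 1 row, among 54532 genes, and all 6 were among the 16034 genes with enough counts to be tested. The set was chosen by measured values: Zfp365, Sesn2, Dcxr and Ephx1 were selected on their fold change and adjusted p at 1 day in these same libraries. The 1-day values are therefore given as a description with no test, and the tests concern the hearts taken at 6 weeks. The main 6-week test still takes its estimate of spread from all 14 libraries, so the 1-day values that chose these 4 genes enter it. A choice by small 1-day p favours genes with a small shared spread, so that test is not independent of the choice. The mice were male C57BL/6J, wild type and 8 weeks old at irradiation. Under anaesthesia, a dose of 30 Gy of γ-rays was given to the chest of the irradiated mice while lead covered the rest of the body. The 1-day hearts came from 3 such mice (IRR_1d) and 3 unirradiated ones (Control_1d). The 6-week hearts came from 4 of each kind (IRR_6w and Control_6w). RNA of whole cardiac tissue was sequenced in bulk, 1 library per mouse, so a change in the number of cells of a type and a change in RNA per cell cannot be told apart.

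Ionizing radiation breaks DNA, and the transcription factor p53 then switches on genes that halt the cell cycle, repair damage or start cell death. Sestrins are among its known targets. They restrain the growth kinase complex mTORC1, Sesn2 by acting as a sensor of the amino acid leucine, and they limit oxidative stress. Sesn2 and Gdf15 are also known to respond to the integrated stress response, in which ATF4 is the transcription factor, and Sesn2 and Ephx1 to the oxidative stress factor NRF2.

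The promoter windows below show a gene that stayed high at 6 weeks (Zfp365), a gene that did not (Dcxr), and the sestrins that did and did not rise at 1 day (Sesn2 and Sesn1). They are RefSeq sequences on GRCm38.p6, read 5′ to 3′ on the strand of the gene, and they hold no annotated exon base. The Sesn1 window precedes an alternative start inside the gene, since the window of its upstream start lies wholly in annotated exon and is not printed. Capitals mark a match to the p53 half-site consensus.
Zfp365, chr10:67912663-67912912, minus strand: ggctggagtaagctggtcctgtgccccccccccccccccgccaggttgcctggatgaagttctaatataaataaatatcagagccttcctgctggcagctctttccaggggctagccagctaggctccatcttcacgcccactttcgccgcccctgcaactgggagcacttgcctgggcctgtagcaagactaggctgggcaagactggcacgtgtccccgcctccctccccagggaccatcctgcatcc
Dcxr, chr11:120727285-120727534, minus strand: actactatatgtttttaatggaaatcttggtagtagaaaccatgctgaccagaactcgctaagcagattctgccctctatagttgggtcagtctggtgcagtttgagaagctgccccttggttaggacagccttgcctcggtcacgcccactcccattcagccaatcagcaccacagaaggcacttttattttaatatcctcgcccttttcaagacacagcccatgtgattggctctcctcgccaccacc
Sesn2, chr4:132510502-132510706, minus strand: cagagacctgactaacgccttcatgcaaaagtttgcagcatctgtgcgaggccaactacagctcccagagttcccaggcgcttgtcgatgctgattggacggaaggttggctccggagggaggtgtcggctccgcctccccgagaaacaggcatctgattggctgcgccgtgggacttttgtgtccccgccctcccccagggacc
Sesn1, chr10:41887189-41887438, plus strand: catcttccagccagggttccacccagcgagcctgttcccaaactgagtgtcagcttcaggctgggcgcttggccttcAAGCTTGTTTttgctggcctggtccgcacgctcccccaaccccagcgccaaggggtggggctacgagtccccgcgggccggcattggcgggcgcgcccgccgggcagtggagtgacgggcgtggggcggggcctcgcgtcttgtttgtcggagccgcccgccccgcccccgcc

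Windows of 250 bases before a RefSeq transcript start were searched on both strands for the p53 half-site, the ATF4 element TGATGNAA and the antioxidant response element core TGACNNNGC. All 6 genes had at least 1 window. The p53 half-site was found once, as AAGCTTGTTT in the printed Sesn1 window, 173 to 164 bases before the start. The antioxidant core was found once, as TGACAGAGC in Sesn2, 36 to 28 bases before the start and inside the annotated exon. No window of the 6 genes held the ATF4 element. Of all 32851 windows of this length, 7.13% held the half-site, 10.2% the antioxidant core and 3.45% the ATF4 element. A match describes the letters and not a bound site.

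Total counts per library ranged from 13336746 to 16837265. Some libraries had many genes at 0 counts. Among tested genes with a median of 0.5 to 2 CPM (the count scaled by the library total) in the other libraries, 58% were at 0 in Control_1d replicate 1, 51.3% in IRR_6w replicate 3, 30.6% in IRR_6w replicate 4 and 19.0% in Control_6w replicate 1, against 0.179 to 6.78% in the other 10. Control_6w replicate 3 and IRR_6w replicate 1 stood apart by markers of other tissues, and IRR_1d replicate 3 by atrial, liver, kidney and white fat markers. Control_1d replicate 1 also held more liver (132 CPM), kidney (22.6) and white fat markers (1071) than the other Control_1d libraries. It stayed in the fit that left out Control_6w replicate 3, IRR_6w replicate 1 and IRR_1d replicate 3. Control_6w replicates 1 and 2 stayed in that fit too, although they held 85.9 and 59 CPM of testis germ cell markers. The 10 cardiomyocyte markers were counted in every library and summed to 8383 CPM in Control_6w replicate 3, 14831 in IRR_6w replicate 1 and 26060 to 57298 in the others. The fold change of each member was also computed without these libraries.

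At 1 day, 5 of the 6 genes were higher in every IRR_1d library than in any Control_1d library, and Sesn1 was not. A gene was called differentially expressed (a DEG) when its fold change was above 2 or below 0.5 and its edgeR p, adjusted over all tested genes, was under 0.05. By this rule 4 of the 6 genes were called at 1 day, against 0.0249% of tested genes called higher, which is the choice itself and not a result. Values without overlap were seen for 6.52% of tested genes upward and 4.14% downward. In order of p, Ephx1 was the last gene inside the threshold, with a log2 fold change of 2.53. The next gene outside it, Gas6, had 2.23. These are not the genes with the largest 1-day rise. Ranked by log2 fold change among all tested genes, Zfp365 stood at 97, Gdf15 at 131, Sesn2 at 254, Dcxr at 379 and Ephx1 at 400.

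**Figure D1:**
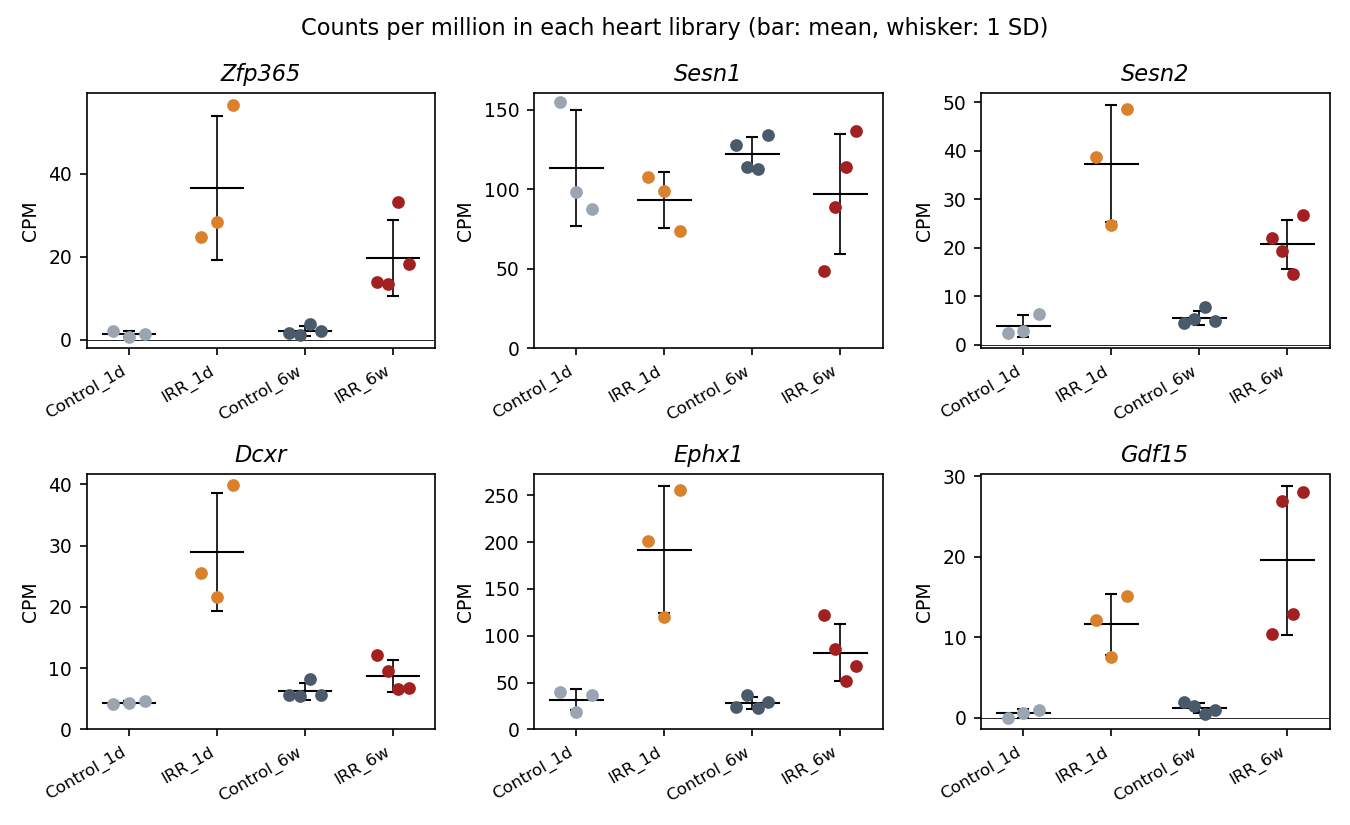
CPM of the 6 genes in each of the 14 libraries, with 1 point per mouse, the mean as a horizontal line and 1 SD as a whisker, for Control_1d, IRR_1d (n = 3 each), Control_6w and IRR_6w (n = 4 each). At 6 weeks the irradiated and control points are apart for Zfp365, Sesn2, Ephx1 and Gdf15, and mixed for Sesn1 and Dcxr.

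Sesn2 (ENSMUSG00000028893, chr4:132492032-132510501, mm10) was low in control hearts, rose at 1 day and stood at an intermediate level at 6 weeks. The 1-day controls had 2.35, 2.70 and 6.38 CPM and the irradiated hearts 38.7, 24.7 and 48.7 CPM, a log2 fold change of 3.16 (SE 0.428), or 3.78 without Control_1d replicate 3. After 6 weeks the controls had 4.49, 5.18, 7.70 and 4.80 CPM, and the irradiated hearts had 22, 19.3, 14.6 and 26.8 CPM. Every irradiated heart was above every control, and the lowest irradiated value belonged to IRR_6w replicate 3. The 6-week log2 fold change was 1.67 (SE 0.350, 95% interval 0.92 to 2.42), with an edgeR adjusted p = 0.0663, so Sesn2 missed the threshold. DESeq2 called it, at adjusted p = 7.79e-04 on all libraries and 1.16e-04 on the 6-week libraries alone, and limma did not (adjusted p = 0.125).

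Sesn1 (ENSMUSG00000038332, chr10:41809935-41908424, mm10), the sestrin with the most transcripts in these hearts, showed no rise at either time. It had 155, 98.2 and 87.5 CPM in Control_1d and 108, 98.7 and 74.0 CPM in IRR_1d. At 6 weeks the controls had 128, 114, 113 and 134 CPM and the irradiated hearts 49.0, 89.0, 114 and 137 CPM. The groups overlapped, and IRR_6w replicate 1 was the lowest of the 14 libraries. The 6-week log2 fold change was -0.59 (SE 0.291, 95% interval -1.21 to 0.03, edgeR adjusted p = 0.602). It was -0.37 without IRR_6w replicate 1 and -0.94 without the 4 libraries with many genes at 0 counts, and neither passed. The 1-day value was -0.30 (SE 0.335), or -0.09 without IRR_1d replicate 3. Sesn3 (ENSMUSG00000032009, chr9:14275067-14333101, mm10), the other sestrin and a known target of FoxO factors, had 6-week means of 46.8 ± 23.1 CPM in controls and 49.8 ± 9.74 CPM in irradiated hearts (SD, n = 4 each). Its 6-week log2 fold change, fitted with TMM scaling that these means lack, was -0.11 (SE 0.262, 95% interval -0.67 to 0.45, edgeR adjusted p = 0.933).

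Levels of different genes were compared per length, as FPKM (CPM per kilobase of the deposited gene length). Sesn1 was the highest of the 3 sestrins in every library. Sesn2 was the lowest in all 7 control libraries and above Sesn3 in all 7 irradiated ones. Its place above Sesn3 and the shares rest on the deposited lengths, 3475 bases for Sesn2 and 15269 for Sesn3. In CPM, without the length, the IRR_6w means were 20.7 for Sesn2 and 49.8 for Sesn3. The Sesn2 share of the summed sestrin FPKM at 1 day was 1.56 to 7.04% in control and 20.8 to 38.0% in irradiated hearts. At 6 weeks it was 3.58 to 6.18% in controls and 11.7 to 28.8% after irradiation. The summed sestrin FPKM itself was 35.3 ± 2.32 in Control_6w and 33.6 ± 10.2 in IRR_6w (SD, n = 4 each). The 1-day shares rest on values that chose Sesn2 and are a description. At 6 weeks the Sesn2 share was higher in every irradiated heart than in any control. The sum could not show a change of the size seen for Sesn2 (6-week means of 1.6 and 5.96 FPKM). Sesn1 alone ran from 12.3 to 34.5 FPKM in IRR_6w.

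**Figure D2:**
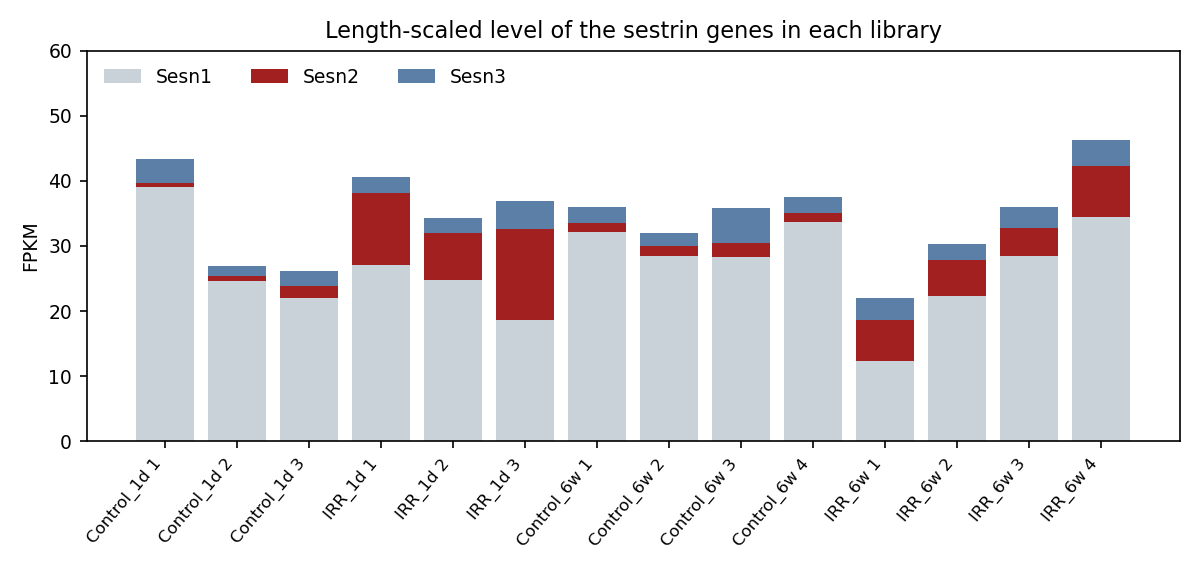
FPKM of Sesn1, Sesn2 and Sesn3 stacked for each of the 14 libraries, labelled by group and replicate. The Sesn2 segment is 11.7 to 28.8% of the bar in IRR_6w and 3.58 to 6.18% in Control_6w.

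Gdf15 (ENSMUSG00000038508, chr8:70629393-70632456, mm10) encodes a secreted member of the TGF-beta superfamily that acts through the receptor GFRAL in the hindbrain and lowers food intake. It had few counts in control hearts, and its level was higher in the irradiated hearts at both times. Control_1d had 0, 9 and 15 counts (0, 0.658 and 1.01 CPM), and the library at 0 was replicate 1, in which many other low genes were also at 0. IRR_1d had 12.2, 7.51 and 15.1 CPM, a log2 fold change of 4.16 (SE 0.948), which was 3.55 without Control_1d replicate 1, 4.85 without Control_1d replicate 3 and 5.34 by limma. At 6 weeks the controls had 1.99, 1.42, 0.526 and 0.985 CPM and the irradiated hearts 10.4, 26.9, 12.9 and 28.1 CPM. The lowest irradiated heart was above the highest control, although the irradiated values fell into a lower and a higher pair. The 6-week log2 fold change was 3.72 (SE 0.792, 95% interval 2.03 to 5.42, edgeR adjusted p = 0.0703), which missed the threshold. Without Control_1d replicate 1, whose removal changes the estimate of spread shared by all groups, edgeR called Gdf15 at adjusted p = 0.0151 and Sesn2 at 0.0350. DESeq2 called Gdf15 at adjusted p = 4.63e-06 on all libraries, and limma gave 0.133.

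Zfp365 (ENSMUSG00000037855, chr10:67886103-67912662, mm10), a zinc finger gene linked to genome stability, was the only one of the 6 that passed the edgeR threshold at 6 weeks. At 1 day it went from 2.01, 0.658 and 1.34 CPM in controls to 24.7, 28.3 and 56.5 CPM in irradiated hearts, a log2 fold change of 4.73 (SE 0.544). At 6 weeks the controls had 1.55, 1.06, 3.82 and 2.09 CPM and the irradiated hearts 14, 13.5, 33.1 and 18.3 CPM. The lowest irradiated value was above the highest control, which was replicate 3, the library with markers of other tissues. Zfp365 was higher in IRR_6w by a log2 fold change of 3.0 (SE 0.434, 95% interval 2.07 to 3.93, edgeR adjusted p = 0.0188). The call held in 10 of 14 fits that left out 1 library and was lost without Control_6w replicate 1 (adjusted p = 0.0752) or 2 (0.1) or IRR_6w replicate 3 (0.0642) or 4 (0.0567). The log2 fold change in these 4 fits was 2.64 to 3.06. The call was also lost with limma (adjusted p = 0.113), with edgeR on the 6-week libraries alone (0.0612) and without the 4 libraries with many genes at 0 counts (0.463).

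Ephx1 (ENSMUSG00000038776, chr1:180976210-181020904, mm10) encodes microsomal epoxide hydrolase, which opens reactive epoxides into diols. Its 1-day controls had 40.2, 18.9 and 36.5 CPM and the irradiated hearts 201, 120 and 255 CPM, a log2 fold change of 2.53 (SE 0.377). At 6 weeks the controls had 24.2, 37.3, 22.4 and 29.8 CPM and the irradiated hearts 122, 86.0, 51.8 and 68.2 CPM. The groups stayed apart, with IRR_6w replicate 1 highest. The 6-week log2 fold change was 1.27 (SE 0.314, 95% interval 0.60 to 1.94, edgeR adjusted p = 0.118), short of the threshold, while DESeq2 on all libraries called it at adjusted p = 0.00879. Without Control_6w replicate 3, IRR_6w replicate 1 and IRR_1d replicate 3 it was 0.88 (SE 0.291, edgeR adjusted p = 0.248). It was 1.59 (SE 0.37, edgeR adjusted p = 0.522) without the 4 libraries with many genes at 0 counts. Of its exonic bases, 3.69% are shared with another annotated gene, Gm36961. The other 5 members and Sesn3 share none.

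Dcxr (ENSMUSG00000039450, chr11:120725399-120727281, mm10) encodes dicarbonyl and L-xylulose reductase, an enzyme of the uronate cycle that also clears reactive dicarbonyls. It had the tightest control values at 1 day, 4.22, 4.31 and 4.64 CPM, and 25.5, 21.6 and 39.8 CPM in IRR_1d, a log2 fold change of 2.60 (SE 0.375). At 6 weeks the controls had 5.59, 5.46, 8.22 and 5.6 CPM and the irradiated hearts 12.1, 9.59, 6.60 and 6.83 CPM. The groups overlapped. After TMM scaling, IRR_6w replicates 3 and 4 (5.59 and 5.45 CPM) were below all 4 controls (5.78 to 7.11 CPM), while replicates 1 and 2 (10.3 and 9.02 CPM) were above them. The 6-week log2 fold change was 0.28 (SE 0.307, edgeR adjusted p = 0.838), with a 95% interval of -0.37 to 0.94. It was 0.10 without IRR_6w replicate 1, 0.19 without replicate 2, and 0.41 without either replicate 3 or 4, and 0.61 (edgeR adjusted p = 0.863) without the 4 libraries with many genes at 0 counts, which include those 2.

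In all, 1 of the 6 genes was called at 6 weeks by edgeR, against 0.237% of tested genes called higher. That fit shares its estimate of spread with the 1-day libraries that chose 4 of the genes. With edgeR on the 6-week libraries alone the count was 0 (Zfp365 adjusted p = 0.0612), and 13 of 14610 genes were called in all. In that fit 4 of the 6 were higher at an unadjusted p under 0.05 (5.76% of tested genes). By DESeq2 on all libraries 4 of the 6 were called (1.86% of tested genes called higher), by DESeq2 on the 6-week libraries the count was also 4 (2.01%), and by limma 0 (0.112%), with 4 of the 6 higher and 1 lower (Sesn1) at an unadjusted limma p under 0.05 (5.63% and 4.72% of tested genes). The groups did not overlap, with IRR_6w higher, for 4 of the 6 genes and for 4.08% of tested genes (1.64% were lower without overlap). An unadjusted edgeR p under 0.05 was found for the same 4 genes, all higher, and for 5.43% of tested genes higher and 3.37% lower. For Zfp365, Sesn2, Ephx1 and Gdf15 the two-sided exact permutation p on TMM-scaled log2 CPM was 0.0286, the smallest that 4 against 4 mice can give. It was 0.0571 for Sesn1 and 0.429 for Dcxr by the same exact permutation test, making 6 such tests on members. Except where TMM scaling is stated, the CPM printed for each library are not TMM-scaled, unlike the values in this test.

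The 6-week values are set beside the 1-day values as a description, since the 1-day values in the denominator chose Zfp365, Sesn2, Dcxr and Ephx1. As a share of the 1-day log2 fold change, the 6-week value was 89.5% for Gdf15, 63.4% for Zfp365, 53% for Sesn2, 50.2% for Ephx1 and 10.9% for Dcxr. The Dcxr share rests on a 6-week value that ran from 0.10 to 0.41 with 1 library left out. That value was 0.61 without the 4 libraries with many genes at 0 counts. The effect at 6 weeks minus that at 1 day was -0.44 (SE 1.11) for Gdf15, -1.73 (SE 0.632) for Zfp365, -1.49 (SE 0.527) for Sesn2, -1.26 (SE 0.474) for Ephx1 and -2.32 (SE 0.475) for Dcxr on the log2 scale. These differences carry no test, and the Gdf15 value has the widest SE of the 5. Between the irradiated groups themselves, IRR_6w minus IRR_1d was -1.19 for Zfp365, -1.15 for Sesn2, -2.01 for Dcxr, -1.51 for Ephx1 and 0.47 for Gdf15 on the log2 scale. The controls of the 2 times differed by log2 values of -0.25 (SE 0.334, Ephx1) to 0.91 (SE 0.840, Gdf15) across the 6 genes.

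**Figure D3:**
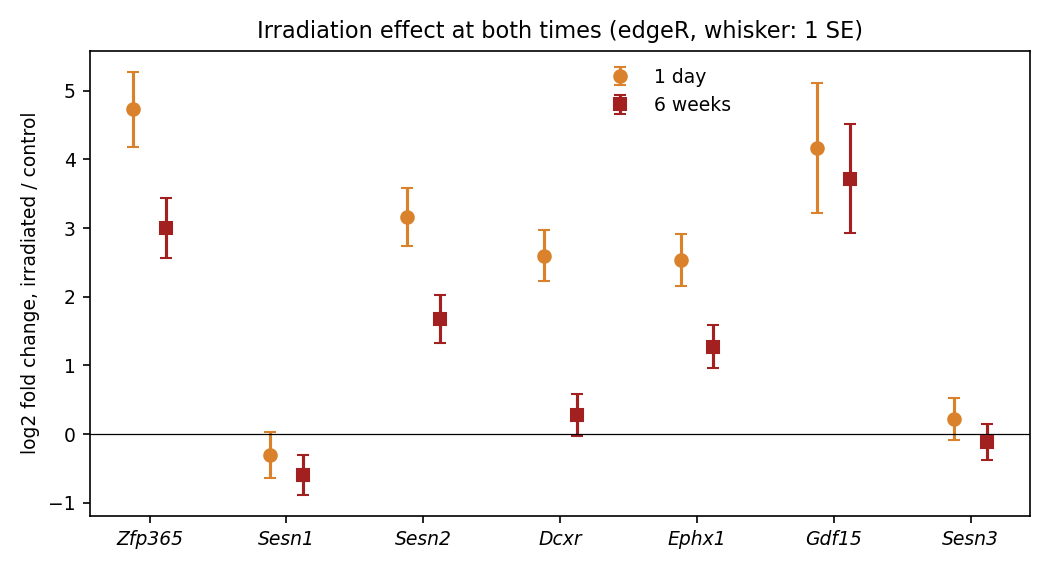
Log2 fold change of irradiated over control hearts for the 6 genes and Sesn3 at 1 day (circles, 3 against 3 mice) and 6 weeks (squares, 4 against 4), with 1 SE as whiskers, from edgeR. Gdf15 is at 4.16 and 3.72, while Dcxr goes from 2.60 to 0.28 and Sesn1 is at -0.30 and -0.59.

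Known p53 targets were read beside the members, and a few of them were higher after irradiation at 6 weeks. Of 26 tested, 2 were called higher and 0 lower at 6 weeks by edgeR, with 9 higher and 1 lower (Fas) at an unadjusted p under 0.05 (5.43% and 3.37% of all tested genes). The list had 6 calls in either direction by DESeq2 on all libraries and 2 by limma. Over all 16034 tested genes the calls in either direction were 331 and 18. Of all tested genes, 0.237% were called higher at 6 weeks by edgeR, 1.86% by DESeq2 on all libraries and 0.112% by limma. The median log2 fold change was 0.334, against -0.0886 over all tested genes. The called genes were Eda2r, a TNF receptor family member, at 3.48 (SE 0.542, edgeR adjusted p = 0.0188) and Zmat3, an RNA-binding protein, at 2.10 (SE 0.351, edgeR adjusted p = 0.0252). Eda2r had 9.72, 6.74, 4.61 and 6.40 CPM in Control_6w and 38.2, 49.6, 125 and 163 CPM in IRR_6w. Of genes named after their values were seen, the death receptor gene Tnfrsf10b had 2.09 (SE 0.423, edgeR adjusted p = 0.0597), Fas, another death receptor gene, -1.13 (SE 0.317, edgeR adjusted p = 0.180) and the cell cycle inhibitor gene Cdkn1a 1.77 (SE 0.375, edgeR adjusted p = 0.0698). The 4 genes that edgeR called at 1 day are all members, so the 1-day edgeR count of every list without the members had to be 0 and is not given for the lists. At 1 day the 26 genes had 12 higher and 0 lower at an unadjusted p under 0.05 (1.94% and 0.960% of all tested genes). DESeq2 on all libraries called 5 of them, counted in either direction (0.156% of tested genes were called higher). At 1 day limma called 0 of all tested genes higher, so its 1-day count is not given for the lists. Mdm2, the p53 inhibitor, also named after its values were seen, had 0.67 (SE 0.256) at 1 day and 0.06 (SE 0.221, edgeR adjusted p = 0.960) at 6 weeks.

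For the partners of the sestrins, no gene passed the test at 6 weeks. The list of 24 genes held GATOR, Rag, AMPK and mTORC1 components, and edgeR called 0 at 6 weeks. At both times 0 were at an unadjusted p under 0.05 and 0 were called by DESeq2, and limma called 0 at 6 weeks. The median log2 fold change was -0.0551 at 1 day (0.0618 over all genes) and -0.0113 at 6 weeks. The smallest 6-week p belonged to Nprl2, a GATOR1 subunit, at -1.31 (SE 0.618, edgeR adjusted p = 0.573), Mtor at 0.46 (SE 0.217, 0.578) and Prkaa1, an AMPK catalytic subunit, at 0.60 (SE 0.312, 0.620). Of the 24, 1 was lower without overlap at each time, against 4.14% of all tested genes lower at 1 day and 1.64% at 6 weeks. Named after their values were seen, these were Depdc5, a GATOR1 subunit, at 1 day (-0.56, SE 0.306) and Mlst8, an mTORC1 subunit, at 6 weeks (-0.77, SE 0.455, edgeR adjusted p = 0.684). The difference between this list and the p53 targets was not tested.

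For the ATF4 targets, 22 of 23 genes were tested. At 6 weeks edgeR and limma called 0, and DESeq2 called 0 at either time. At an unadjusted p under 0.05, 3 were higher and 1 lower at 6 weeks (5.43% and 3.37% of all tested genes), and 0 at 1 day. The amino acid transporter gene Slc7a5 stood at 1.22 on the log2 scale at 6 weeks (SE 0.392, edgeR adjusted p = 0.282) and asparagine synthetase, Asns, 1.18 (SE 0.531, edgeR adjusted p = 0.538). The cystine transporter gene Slc7a11 had -4.42 (SE 1.89, edgeR adjusted p = 0.507), from 22, 0, 798 and 13 counts in Control_6w and 23, 15, 0 and 0 in IRR_6w, so that 1 control library carried nearly all of its counts. The 6-week median log2 fold change was 0.152 for the ATF4 targets and 0.282 for the NRF2 targets, against -0.0886 over all tested genes. Of 20 NRF2 targets, edgeR called 0 at 6 weeks. Without overlap, 3 of them were higher at each time (6.52% of all tested genes at 1 day and 4.08% at 6 weeks). At 1 day 1 was lower (4.14%). At an unadjusted p under 0.05, 3 were higher at 6 weeks (5.43% of all tested genes) and 1 at 1 day (1.94%). DESeq2 on the 6-week libraries called 1 and limma 0. The 3 with the smallest p were the transporter gene Abcc1 at 0.87 (SE 0.234, edgeR adjusted p = 0.153), the ferritin light chain gene Ftl1 at 0.83 (SE 0.241, edgeR adjusted p = 0.202) and Gclm, the modifier subunit of glutathione synthesis, at 0.64 (SE 0.260, edgeR adjusted p = 0.474).

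The relatives of the enzymes and the receptor of Gdf15 were followed too. Ephx2, the soluble epoxide hydrolase, stood at -0.50 on the log2 scale at 6 weeks (SE 0.266, edgeR adjusted p = 0.631), Ephx3 1.12 (SE 1.03, edgeR adjusted p = 0.806), and Ephx4 had too few counts to be tested. Of 8 other uronate cycle and polyol genes, edgeR and limma called 0 at 6 weeks and DESeq2 0 at either time. At both times 0 were at an unadjusted p under 0.05. The smallest 6-week p belonged to Sord, sorbitol dehydrogenase, at -0.78 (SE 0.449, edgeR adjusted p = 0.669), then Akr1b3, aldose reductase, at -0.35 (SE 0.294, 0.785) and Ugdh, the enzyme that makes UDP-glucuronate, at 0.31 (SE 0.310, 0.825). Gfral, the Gdf15 receptor, had 0 counts in the 14 libraries, and its co-receptor Ret was at -0.70 on the log2 scale at 6 weeks (SE 0.527, edgeR adjusted p = 0.763).

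**Figure D4:**
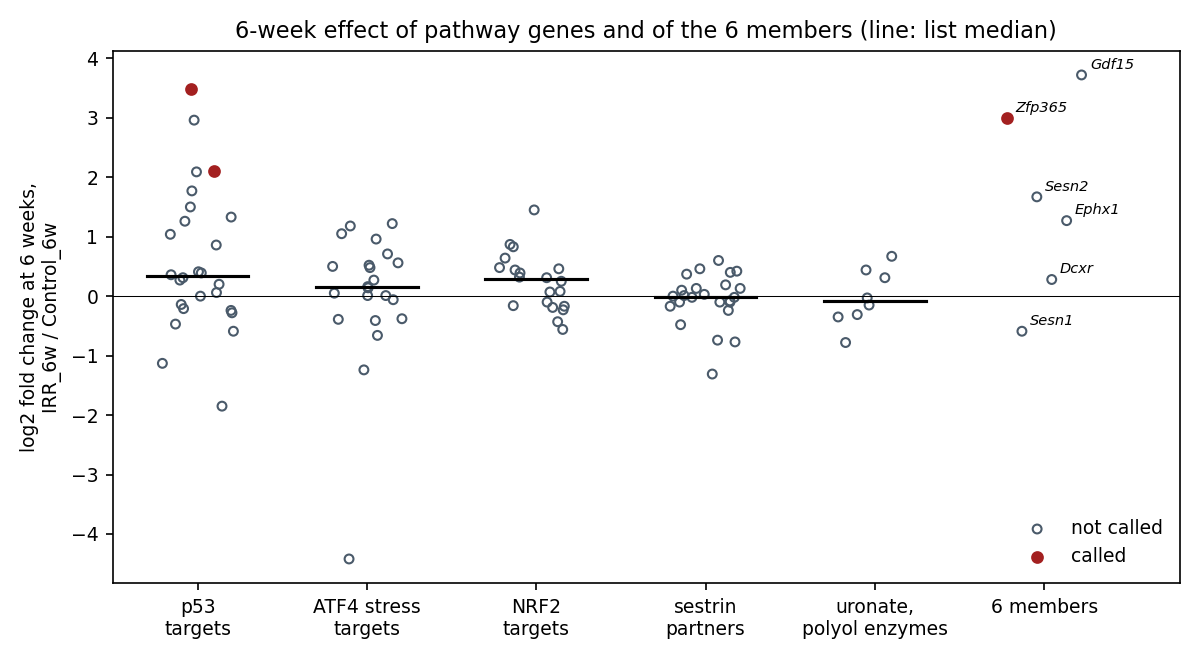
6-week log2 fold change (IRR_6w over Control_6w, edgeR) of each tested gene of 5 pathway lists without the members, and of the 6 members, with filled points for called genes and a line at each list's median. The called points are Eda2r, Zmat3 and Zfp365, and the sestrin partners lie between -1.31 and 0.60.

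The genes whose TMM-scaled log2 CPM ran most like that of a member over the 14 libraries were named by Pearson's r among 13489 genes, with the members themselves left out of the ranking. The libraries share the 4 groups, so these values describe the pattern and carry no test. Among these non-members Gas6, the ligand that bridges dying cells to the TAM receptors of phagocytes, was nearest to Ephx1 (r = 0.960) and Sesn2 (0.920) and also named for Dcxr (0.871). Sesn2 was further matched by Gne (0.898) and the p53 target Bax (0.895), Ephx1 by Serpina3n (0.909) and Sulf2 (0.902), and Dcxr by Gne (0.874) and Zfp809 (0.844). Gdf15 ran most like Eda2r (0.919), Nectin4 (0.906) and Pvt1 (0.904). Zfp365 was followed by Rtp4 (0.909), Pqlc3 (0.907) and Serpine2 (0.901), and Sesn1 by Ivns1abp (0.940), Ablim1 (0.916) and Cyfip2 (0.908). Between members, r was 0.912 for Zfp365 and Sesn2 and 0.883 for Dcxr and Ephx1. These 4 genes were chosen by 1-day values in libraries that enter r, so a high r between them is part of the choice. The values for Sesn1 with the other 5 were negative, -0.522 to -0.337.

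Markers of other cell types differed between libraries and were set beside the members. The 10 macrophage and monocyte markers summed to 289 to 619 CPM in Control_6w and 1247 to 1730 CPM in IRR_6w, and to 431 to 973 in Control_1d and 527 to 684 in IRR_1d. The 8 fibroblast markers summed to 1212 to 2167 CPM in Control_6w and 2685 to 4751 in IRR_6w, and the 8 endothelial markers to 814 to 2103 and 1899 to 2336. At 1 day the fibroblast sums were 1759 to 3194 in controls and 2102 to 5917 in irradiated hearts. The part of these cells in the 6-week values was not tested. Ephx1 and Dcxr are abundant in liver and kidney, and their highest 6-week values fell in IRR_6w replicate 1, which also held the most liver (589 CPM, against 0 to 17.3 in the other 3), kidney (44.2 against 7.42 to 8.24) and white fat markers (4323 against 170 to 602). The 8 kidney markers summed to more in each of the 4 IRR_6w libraries (7.42 to 44.2 CPM) than in any Control_6w library (0.589 to 6.04 CPM). Only 1 of the 8 was counted in every library. In IRR_6w replicates 3 and 4, 6 and 5 of them were at 0, so those sums rest on few genes. In Control_6w 3 to 7 of them were at 0. The liver sums were 5.39 to 44.9 CPM in Control_6w, and 0 and 1.25 CPM in IRR_6w replicates 3 and 4, which are among the libraries with many low genes at 0 counts. At 1 day, IRR_1d replicate 3 had the highest Ephx1 (255 CPM) and Dcxr (39.8 CPM), with 197 CPM of liver (8.89 and 21 in the other 2), 15.7 of kidney (4.10 and 4.37) and 1225 of white fat markers (216 and 311). Control_1d replicate 1 had 132 CPM of liver, 22.6 of kidney and 1071 of white fat markers, with 40.2 CPM of Ephx1 and 4.22 of Dcxr. The part of liver, kidney and fat transcripts in the values of Ephx1 and Dcxr was not tested. Lung epithelium (610 CPM), atrium (3772) and brown fat (1447) were also highest in IRR_6w replicate 1, and thymus in Control_6w replicate 3 (4241). Testis germ cell markers summed to 85.9, 59, 66.5 and 0.0616 CPM in Control_6w replicates 1 to 4, and to at most 0.338 CPM outside Control_6w.

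**Figure D5:**
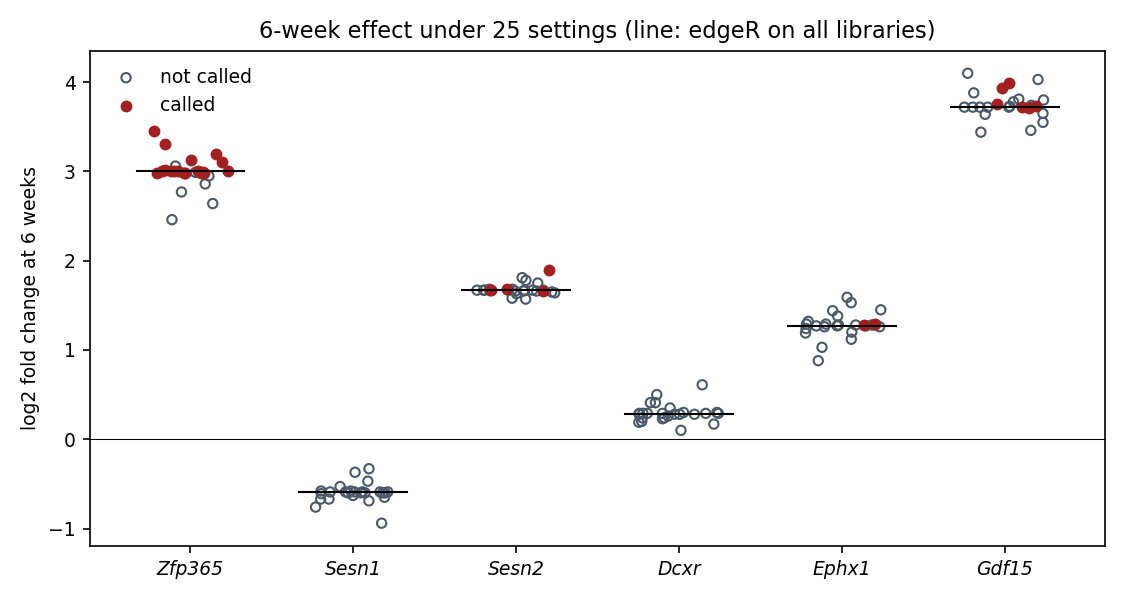
6-week log2 fold change of each of the 6 genes under 25 settings (other tools, scaling, filters, a block and libraries left out), with filled points where the gene was called and a line at the edgeR value on all libraries. Zfp365 stays between 2.46 and 3.45 and Sesn2 between 1.57 and 1.90, whether or not they are called.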

How the data were processed

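Heart RNA of 14 mice was sequenced as paired reads, 1 library per mouse. The authors trimmed the reads with Trim Galore 0.6.1 after FastQC 0.11.8, aligned them to mm10 with STAR 2.5.0a and used HTSeq for gene-level counting. They deposited raw counts with the position and length of every gene. The length equals the union of the GENCODE M21 exons for the 6 genes and Sesn3. Strandedness, counting mode and annotation release are not given in the sources used here. Of 54532 gene identifiers, 54409 are in GENCODE M21, 98.3% at the same coordinates.

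Counts were fitted in edgeR 4.0.16 (R 4.3.3) with filterByExpr, TMM scaling, 1 model of the 4 groups without covariates and the quasi-likelihood test. p-values were adjusted by Benjamini-Hochberg over 16034 genes. DESeq2 1.42.0 and limma 3.58.1 (voom) were alternatives, as were other scalings, no filter, single time points, a replicate block and libraries left out. The SE of a fold change is its size divided by the square root of the F statistic. Log2 CPM used a prior count of 2. Exact permutation tests are two-sided. The script was tested on simulated data. The members, gene lists and tests were chosen with earlier results of these data known. The text names the 6 members, Sesn3, per pathway list the called genes and otherwise up to 3 with the smallest 6-week p, and per member the 3 genes with the highest r and a mean log2 CPM above 0. Tnfrsf10b, Fas, Cdkn1a, Mdm2, Depdc5, Mlst8 and Gas6 at 1 day fall outside this rule and were named after their values were seen. Members had 0 to 3696 counts per library, and low counts limit the precision of Gdf15 and Zfp365 in controls.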

Additional observations from a re-analysis of the deposited data

Results flagged for a closer look

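Among the 6 genes and Sesn3, Control_6w replicate 3 was far from the other controls for Dcxr (8.22 CPM, next 5.6) and for Sesn3 (81.1 CPM, next 38.5). The same library was far from its group for the sums of white fat (1979 CPM, next 567), lung epithelium (41.3, next 1.55), thymus (4241, next 48.3) and endothelial markers (814, the lowest, next 1917). IRR_6w replicate 1 was far from its group for the sums of liver (589 CPM, next 17.3), kidney (44.2, next 8.24), white fat (4323, next 602), lung epithelium (610, next 2.40), thymus (39.6, next 15.3) and atrial markers (3772, next 34.5). These are 12 of 38 groups of 4 libraries examined, by the gap of an extreme library to its neighbour over the range of the group. Chance alone marks about 1 in 20 by this measure only for independent, normally distributed values. The values here are CPM without a log scale and all 12 fall in 2 libraries, so 12 of 38 cannot be read against that rate. Without these 2 libraries and IRR_1d replicate 3, the 6-week log2 fold change of Dcxr was 0.17 (SE 0.355), against 0.61 without the 4 libraries with many genes at 0 counts.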

How the results depend on the processing

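The number of the 6 genes called at 6 weeks was 1 and moved with the tool, the scaling, the filter and the libraries. It was 3 with library totals in place of TMM, 3 without a filter on low counts, 4 with DESeq2 on all libraries or on 1 time point, and 0 with limma-voom, with edgeR on 1 time point or without the 4 libraries with many genes at 0 counts, where 4, 4 and 5 of the genes were higher at an unadjusted p under 0.05 (5.63, 5.76 and 4.70% of tested genes) and 1, 0 and 1, Sesn1, lower (4.72, 1.81 and 0.940%). Leaving out 1 library gave 0 to 3. No member was called (0) when either Control_6w replicate 1 or 2, or either IRR_6w replicate 3 or 4, was left out (4 of the genes higher at an unadjusted p under 0.05 in each, against 4.09 to 4.77% of tested genes, and Sesn1 lower without IRR_6w replicate 4), 2 without IRR_6w replicate 1 and 3 without Control_1d replicate 1. Over all genes the calls in either direction were 41 by edgeR and 331 by DESeq2 on all libraries, 318 by DESeq2 on 1 time point and 18 by limma-voom. They were 138 without a filter, 83 with library totals and 13 with edgeR on 1 time point. The count was 0 without the 4 libraries with many genes at 0 counts. It was also 0 in each of the 4 fits just named that left out 1 library and called no member. It was 98 when IRR_6w replicate 1 and 64 when Control_1d replicate 1 was left out. Without Control_6w replicate 3, IRR_6w replicate 1 and IRR_1d replicate 3 it was 180.

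Zfp365 lost its call with limma-voom (2.95, adjusted p = 0.113), with edgeR on 1 time point (2.99, 0.0612) and without the 4 libraries with many genes at 0 counts (2.46, 0.463), and kept it in 17 of 24 alternatives. Its log2 fold change ran from 2.64 to 3.31 with 1 library left out. Sesn2 passed with library totals (1.90), no filter (1.66) and DESeq2 on all libraries (1.68) or on 1 time point (1.67), and ran from 1.57 to 1.81 with 1 library left out. Gdf15 passed under the same settings (3.99, 3.71, 3.75 and 3.73), and without IRR_6w replicate 1 it was 3.94 (adjusted p = 0.0484), within a range of 3.44 to 4.03. Ephx1 passed with DESeq2 on all libraries (1.29) and on 1 time point (1.28), within 1.03 to 1.45 with 1 library left out. Sesn1 and Dcxr passed in 0 of 24 alternatives, and no direction of a 6-week value turned. At an unadjusted edgeR p, the 6-week values were 0.0618 for Sesn1 and 0.370 for Dcxr. No 1-day direction turned, and the 1-day values ran from 3.53 to 5.34 for Gdf15 and from 2.81 to 3.78 for Sesn2 over the alternatives. Scaling by library totals moved the all-gene median (log2) by 0.230 at 6 weeks, and Sesn1 was then -0.33. The cause of these changes was not tested.

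Replicate numbers are shared between groups, but same-numbered libraries did not deviate together (correlations of -0.364 to 0.371 over 7 pairs), so the number was not read as a pairing. With a replicate block, 1 of the 6 genes was called (Zfp365, 3.02, adjusted p = 0.0483), and 7 genes in all.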
